A study of Mus musculus with 48 samples.

Results

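The immediate early genes described here are Fos, Fosb, Jun, Junb, Egr1, Ier2, Nr4a1, Dusp1, Klf4 and Maff. They were chosen by name, as the rows of the expression table that carry these symbols, and are 10 of the 47560 genes with usable values. Values were available for the lungs of 48 adult mice, with 3 mice in each of 16 groups formed by strain, sex, injection and air. The mice were C3H/HeN males (C3HM), C57Bl/6 males (C57BM), C3H/HeN females (C3HF) and C57Bl/6 females (C57BF), both inbred strains, and the labels name no transgene or engineered allele. The labels give no substrain for C57Bl/6, which the study's methods call C57Bl/6N. Each mouse was given 1 intraperitoneal injection, either saline or 25 mg/kg of aurothioglucose (ATG, a gold drug known to block thioredoxin reductase). Mice were then kept for 96 h in room air or in hyperoxia, with oxygen above 95%. According to the labels every group was given ketamine and xylazine before the lungs were taken. The comparisons asked how hyperoxia, ATG, strain and sex related to these transcripts.

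Immediate early genes are transcribed within minutes of a stimulus, from factors that the cell already holds, and without new protein synthesis. Growth factors, stress kinases, calcium, mechanical strain and oxidants all induce them, and most of their transcripts are short lived. Products of the Fos and Jun families form the dimeric factor activator protein-1 (AP-1), which in the lung takes part in responses to injury, inflammation and oxidants. Because the transcripts rise quickly, tissue handling, anaesthesia and time of day are known to move them as well.

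The values are FPKM, fragments scaled to transcript length and to the mapped fragments of a library, and absolute sequencing depth is unknown. Summed over all genes, FPKM ranged from 510933 to 748290 in the 48 lungs. Lung identity was checked on markers. Sftpc, the surfactant protein of alveolar type 2 cells, ranged from 2996 to 42323 FPKM, Ager of alveolar type 1 cells from 612 to 3472 and Scgb1a1 of club cells from 6652 to 225989. No 2 mice had identical values. Each mouse is a separate animal with 1 library, and p-values weigh differences between groups against the spread between mice of the same group.

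On GRCm38 (mm10) with the GENCODE M21 annotation, all 10 are protein coding. Fos lies at chr12:85473890-85477273 on the plus strand, Fosb at chr7:19302696-19310051 on the minus strand, Jun at chr4:95049034-95052222 on the minus strand and Junb at chr8:84974484-84978718 on the minus strand. Nr4a1 lies at chr15:101254269-101274795 on the plus strand and Klf4 at chr4:55527143-55532466 on the minus strand. Maff lies at chr15:79346621-79359076 on the plus strand, Ier2 at chr8:84661331-84662852 on the minus strand and Dusp1 at chr17:26505590-26562128 on the minus strand. Most of the transcript sequence is unique. The largest share of 30-base sequences also found in transcripts of other genes on the same strand was 2.17%, for Klf4. On the opposite strand, Junos overlaps Jun and Prdx2 overlaps Junb. Antisense transcripts held 6.42% of the 30-base sequences of Jun and 6.55% of those of Junb. Junos was between 1.55 and 14.1 FPKM and Prdx2 between 74.2 and 274 FPKM. Whether strand was used in counting is not stated in the sources, so reads from these overlaps cannot be told apart. The gene model of Dusp1 also overlaps Ergic1 on the other strand, and no 30-base sequence of Dusp1 was found in antisense transcripts.

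Promoter windows of 300 bases, from 250 before to 50 after a transcription start, were read from RefSeq sequences on GRCm38.p6 for 8 of the 10 genes, in 10 windows. Entries for Egr1 and Ier2 were not matched. Of the windows, 5 are shown, because their genes are the ones on which the results below turn. Fos and Junb rose in hyperoxia, Maff had the largest fold change of the 10, Nr4a1 differed by strain and Dusp1 by sex. For Maff, 3 windows are listed, and the one shown was chosen because it holds the full CRE, which the other 2 lack. Capitals mark any of the motifs searched on both strands, which were the cAMP response element (CRE) TGACGTCA, its core TGACG, the AP-1 site TGANTCA, the EGR site GCGNGGGCG, TATAAA and the CArG box of serum response factor. Every full CRE also counts as a core.
Fos, chr12:85473640-85473939, plus strand: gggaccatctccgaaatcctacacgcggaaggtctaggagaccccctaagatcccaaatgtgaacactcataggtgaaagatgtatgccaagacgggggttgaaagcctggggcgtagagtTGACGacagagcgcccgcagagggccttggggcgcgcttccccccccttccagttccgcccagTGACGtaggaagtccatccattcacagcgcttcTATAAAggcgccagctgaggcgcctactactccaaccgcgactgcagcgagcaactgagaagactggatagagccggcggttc
Junb, chr8:84978699-84978998, minus strand: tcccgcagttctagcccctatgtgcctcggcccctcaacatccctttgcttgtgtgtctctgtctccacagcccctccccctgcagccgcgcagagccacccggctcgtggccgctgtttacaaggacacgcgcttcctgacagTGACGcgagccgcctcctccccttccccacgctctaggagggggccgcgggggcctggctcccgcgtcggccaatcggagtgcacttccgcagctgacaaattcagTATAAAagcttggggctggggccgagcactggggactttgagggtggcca
Maff, chr15:79347270-79347569, plus strand: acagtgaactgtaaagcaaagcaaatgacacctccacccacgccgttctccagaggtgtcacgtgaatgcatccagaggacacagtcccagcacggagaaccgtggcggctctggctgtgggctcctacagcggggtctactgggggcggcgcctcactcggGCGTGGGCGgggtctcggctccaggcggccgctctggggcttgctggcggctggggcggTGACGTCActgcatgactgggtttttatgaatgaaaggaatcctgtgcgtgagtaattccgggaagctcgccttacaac
Nr4a1, chr15:101266596-101266895, plus strand: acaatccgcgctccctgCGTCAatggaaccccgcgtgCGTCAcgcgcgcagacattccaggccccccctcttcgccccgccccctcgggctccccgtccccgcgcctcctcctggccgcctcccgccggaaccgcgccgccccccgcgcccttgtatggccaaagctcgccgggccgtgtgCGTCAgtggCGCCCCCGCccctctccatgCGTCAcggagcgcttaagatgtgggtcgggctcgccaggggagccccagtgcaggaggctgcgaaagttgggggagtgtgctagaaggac
Dusp1, chr17:26508423-26508722, minus strand: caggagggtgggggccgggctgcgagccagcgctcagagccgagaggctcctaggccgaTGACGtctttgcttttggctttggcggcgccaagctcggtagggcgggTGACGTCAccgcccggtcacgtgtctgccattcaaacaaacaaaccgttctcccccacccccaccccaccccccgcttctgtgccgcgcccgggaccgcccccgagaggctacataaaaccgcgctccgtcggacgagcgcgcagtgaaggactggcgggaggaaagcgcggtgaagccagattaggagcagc
The full CRE was found in 2 of the 10 windows, of Dusp1 and Maff, and in 1.79% of 32851 windows of all genes. Its core TGACG was found in 8 of the 10 windows, against 20.8% of all windows. These belong to 7 of the 8 genes, with Jun as the exception. The EGR site occurred in 4 of the 10 windows, of Fosb, Klf4, Maff and Nr4a1, against 5.55% of all windows. TATAAA occurred in 2 of the 10, of Fos and Junb, against 13.6%. Neither the AP-1 site nor the CArG box was found in these windows, and they were in 7.81% and 1.63% of all windows. A match describes the letters of a window and not a bound site.

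Over the 48 lungs the genes were expressed at very different levels. FPKM is a level per length, so the genes can be compared with each other. Dusp1 had the highest median, 187 FPKM, followed by Junb with 99.7, Jun with 90.6, Ier2 with 86.9 and Klf4 with 53.2. Fos with 47.9, Maff with 42.4, Egr1 with 33.2 and Nr4a1 with 26.3 lay lower. Fosb was by far the least abundant, with a median of 1.80 FPKM. The ranges of all these genes overlapped with those of their neighbours in this order. Fosb varied 37.4-fold between the lowest and the highest mouse, Maff 32.6-fold, Egr1 24.4-fold and Fos 21.5-fold, whereas Jun varied 2.60-fold. Of the highest values of the 10 genes, 7 came from saline mice in hyperoxia. The C3HF mouse 33 was the highest of all 48 in Fos, Junb, Egr1 and Ier2, and the C57BM mouse 19 was the highest in Dusp1 and Maff. C57BF 44 was the highest in Fosb. The lowest group mean was that of C3HM given saline in room air for Fos, Fosb, Junb, Egr1, Nr4a1, Dusp1 and Maff.

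**Figure D1:**
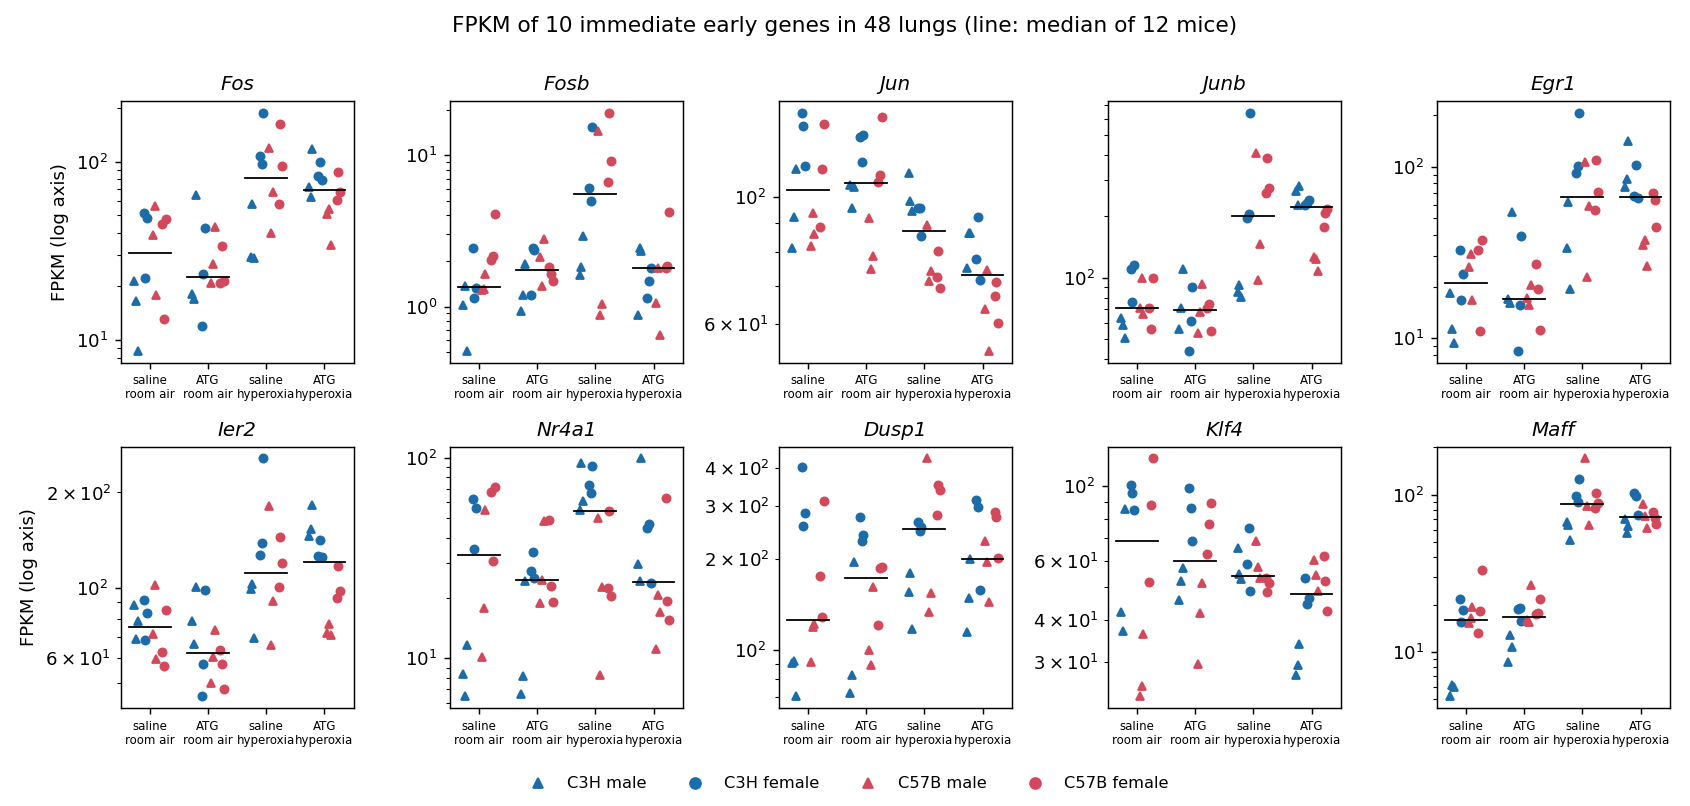
FPKM of the 10 genes on log axes in each of 48 lungs, by injection and air, with strain as colour and sex as marker shape and a line at the median of 12 mice. Maff in hyperoxia lies above all room air values, and the medians of Jun lie lower in hyperoxia. Fosb is raised in saline mice in hyperoxia, whose median is 5.50, but not in ATG mice in hyperoxia, whose median is 1.79.

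The first comparison asked what 96 h of hyperoxia did to these transcripts in mice given saline. Of the 10 genes, 8 rose and Jun fell, and Klf4 did not pass the test. Log2(FPKM + 1) was compared with limma at an adjusted p-value under 0.05, averaged over strain and sex, and fold changes are log2 differences on this scale. The threshold was passed by 60.1% of all 16321 genes tested, so 9 of 10 has to be read against a background in which most genes changed. The median log2 fold change of the 10 genes was 0.93 and that of all genes 0.01. In hyperoxic bulk lung, fewer cells of a type and less RNA per cell cannot be told apart.

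Among the AP-1 genes, Fos, which encodes a leucine zipper protein that must pair with a Jun protein, ranged from 8.72 to 56.2 FPKM in the 12 saline mice in room air, with a median of 30.7. In hyperoxia it ranged from 28.8 to 187, with a median of 81.4. Of the 12 mice in hyperoxia, 9 lay above every room air mouse, and the ranges overlapped. Fos rose by a log2 fold change of 1.39 ± 0.27 (SE), with an adjusted p = 0.000162. Junb, the Jun family member that often restrains the activity of Jun, had a median of 71.4 FPKM in room air (50.7 to 115) and of 200 in hyperoxia (80.8 to 640). It rose by 1.34 ± 0.21 (SE) on the log2 scale (adjusted p = 1.6e-05), with 8 of 12 mice above the room air range. Fosb, the related gene known for slowly degraded splice forms, had a median of 1.35 FPKM in room air (0.509 to 4.07) and of 5.50 in hyperoxia (0.881 to 19.0). Its log2 fold change was 1.20 ± 0.28 (SE), with an adjusted p = 0.00109. The spread of Fosb in hyperoxia was wide, since 7 mice lay above the room air range and the others within it. Jun went the other way. Its median was 103 FPKM in room air (81.4 to 140) and 87.2 in hyperoxia (69.3 to 110), a log2 fold change of -0.28 ± 0.07 (SE) with an adjusted p = 0.00244. The Jun ranges overlapped, with 5 of 12 mice in hyperoxia below the lowest room air mouse. By sex, the Jun median went from 123 to 82.9 FPKM in females and from 89.2 to 91.8 in males. The sex difference of this effect, given further on, missed the threshold.

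Egr1, the zinc finger factor induced by growth factors and shear stress, had a median of 21.0 FPKM in room air (9.37 to 37.2) and of 66.9 in hyperoxia (19.3 to 206). It rose by 1.62 ± 0.26 (SE) on the log2 scale (adjusted p = 2.16e-05), and 9 of 12 mice exceeded every room air mouse. Nr4a1, which encodes the orphan nuclear receptor Nur77, was scattered in both conditions, from 6.46 to 71.7 FPKM in room air and from 8.30 to 93.9 in hyperoxia. Its log2 fold change was 0.65 ± 0.28 (SE) with an adjusted p = 0.0488, only just past the threshold. This call was lost in 6 of 7 other settings and on leaving out any 1 of 15 mice, with adjusted p-values of up to 0.145, and the averaged value covers a difference between strains given further on. Klf4, the zinc finger factor expressed in endothelium and differentiated epithelium, had a median of 68.5 FPKM in room air and of 54.0 in hyperoxia. Its log2 fold change was -0.02 with a 95% interval from -0.31 to 0.27 (adjusted p = 0.912). This average covers opposite directions in the sexes. The Klf4 median went from 36.6 to 56.1 FPKM in males and from 91.6 to 52.3 in females. The sex difference of this effect, given further on, missed the threshold. The room air mice spread widely, from 23.6 to 121 FPKM, and the hyperoxia mice lay between 48.4 and 75.1.

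Maff, which encodes a small MAF protein that pairs with Nrf2 and related factors at antioxidant response elements, was the gene of the 10 with the largest fold change. In room air it lay between 5.22 and 33.0 FPKM with a median of 16.0. In hyperoxia it lay between 51.8 and 170 with a median of 86.8. All 12 mice in hyperoxia were above all 12 in room air, and Maff was the only one of the 10 genes without overlap. How many of all genes separated in this way was not counted, so this describes Maff and not the set. The log2 fold change was 2.55 ± 0.14 (SE), a 5.86-fold rise, with an adjusted p = 1.24e-11. Ier2, a nuclear protein gene of the same early class, rose by 0.62 ± 0.15 (SE) (adjusted p = 0.00157), from a median of 75.1 to 111 FPKM. Dusp1, the phosphatase that inactivates p38 and Jun N-terminal kinases, rose by 0.55 ± 0.17 (SE) (adjusted p = 0.00744), from a median of 125 to 251. By sex, the Dusp1 median went from 91.7 to 155 FPKM in males and from 270 to 272 in females. The female means went from 314 to 256 in C3HF and from 205 to 323 in C57BF. In the test of a sex difference of the hyperoxia effect, given further on, 0 of the 10 genes passed. For Dusp1 the ranges were nearly the same, 70.3 to 401 in room air and 117 to 429 in hyperoxia, and 1 mouse, C57BM 19, exceeded the room air range. Its call was lost under quantile normalization (log2 0.32, adjusted p = 0.0902).

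**Figure D2:**
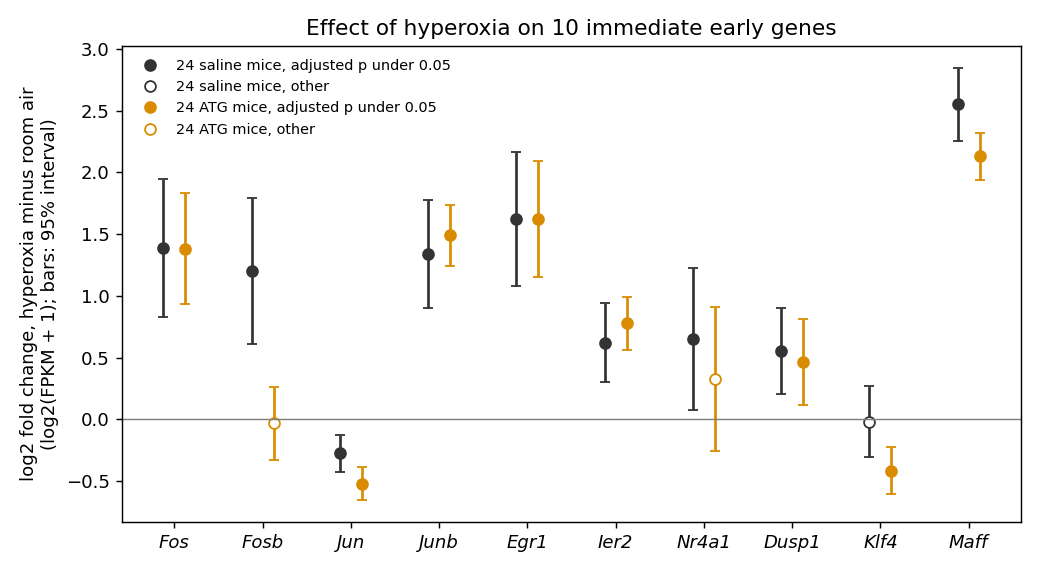
Log2 fold change of each gene in hyperoxia against room air, fitted in 24 saline mice and separately in 24 ATG mice, with 95% intervals; filled points have an adjusted p-value under 0.05. Fos, Junb, Egr1 and Maff lie above 1 in both sets, Jun lies below 0 in both, and Fosb lies at 1.20 in saline mice and at -0.03 in ATG mice.

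The same comparison in mice given ATG used 24 other animals, with no mouse shared. Of the 10 genes, 6 rose and 2 fell, against 61.8% of 16206 genes past the threshold. Maff again did not overlap, with 8.69 to 26.6 FPKM in room air and 57.1 to 102 in hyperoxia, a log2 fold change of 2.13 ± 0.09 (SE) with an adjusted p = 1e-13. Junb rose by 1.49 (adjusted p = 9.1e-10), Egr1 by 1.62 (adjusted p = 2.81e-06), Fos by 1.38 (adjusted p = 1.25e-05) and Ier2 by 0.78 (adjusted p = 1.52e-06). Dusp1 rose by 0.46 (adjusted p = 0.0200), and its call was lost under quantile normalization (log2 0.21, adjusted p = 0.309) and median ratio scaling. Jun fell by 0.52 on the log2 scale (adjusted p = 4.93e-07), from a median of 106 to 73.1 FPKM, and Klf4 fell by 0.42 (adjusted p = 0.000503), from a median of 59.9 to 47.6. Fosb had a log2 fold change of -0.03 with a 95% interval from -0.33 to 0.27 (adjusted p = 0.866), and Nr4a1 one of 0.33 with an interval from -0.25 to 0.91 (adjusted p = 0.321). Fosb thus stayed between 0.644 and 4.19 FPKM in ATG mice in hyperoxia, while 7 of 12 saline mice in hyperoxia lay above 4.19.

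The other genes of the pathway are given from lists, to be read against 5192 of 16321 genes that rose and 4611 that fell in saline mice, and 5802 and 4216 of 16206 in ATG mice. Of 12 AP-1 and MAF partners, 8 rose in each set, Batf2 fell in saline mice and Atf2 in ATG mice, these last being named after their values were seen. The largest changes in saline mice were those of Fosl1 (2.84, adjusted p = 9.76e-09) and Atf3 (2.22, adjusted p = 6.18e-09), a Fos family gene and a stress-induced partner, followed by Fosl2 (1.35, adjusted p = 1.55e-07) and Mafk (1.12, adjusted p = 7.47e-10). Of 36 other immediate early genes 34 were tested, and 30 rose and 3 fell in saline mice, against 28 and 2 in ATG mice. Their median log2 fold change was 0.95 in saline mice and 0.99 in ATG mice, beside medians over all genes of 0.01 and 0.06. Myc, a transcription factor of cell growth, led in saline mice with 2.78 (adjusted p = 5.36e-11), before Ctgf (2.34, adjusted p = 1.97e-10), Socs3 (2.20, adjusted p = 4.61e-07) and Ptgs2 (2.15, adjusted p = 1.67e-08). Of 10 other MAP kinase phosphatases, 4 rose and 2 fell in each set, a share like that of all genes, with Dusp4 leading (1.71, adjusted p = 3.21e-09, in saline mice). Of 23 upstream kinases and factors tested, 11 rose and 4 fell in saline mice, and 12 rose and 6 fell in ATG mice. Their median log2 fold changes were 0.13 and 0.20, beside 0.01 and 0.06 over all genes. Among them the p38 activators Map2k6 (-1.19, adjusted p = 1.68e-08) and Map2k3 (0.96, adjusted p = 4.27e-08) went in opposite directions in saline mice. All 9 glucocorticoid induced genes tested rose in saline mice, led by the metallothionein Mt2 (5.74, adjusted p = 7.91e-13), Cdkn1a (3.95, adjusted p = 3.59e-17) and Fkbp5 (3.29, adjusted p = 3.35e-12). Several of them, Mt2 and Cdkn1a included, are also induced by metals or DNA damage. In ATG mice 7 of the 9 rose and Klf9 fell. The 5 stress kinase partners rose in both sets, with Trib3 at 3.02 (adjusted p = 1.24e-11) and Atf4, the factor of the integrated stress response, at 1.66 (adjusted p = 8.77e-13) in saline mice.

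Markers of cell types moved with hyperoxia too. In saline mice 6 of 6 neutrophil markers rose, with a summed level of 135 to 775 FPKM in room air and of 161 to 6271 in hyperoxia, and Ly6g was at 0 in 8 of 48 mice. The median of this sum went from 216 to 3060 FPKM in females and from 441 to 206 in males. By strain it went from 461 to 3060 in C57B and from 188 to 206 in C3H. Red blood cell markers fell in 4 of 4 tested, from sums of 3341 to 67957 to sums of 305 to 2004, and Alas2 was listed at 0 in all mice. Cardiac muscle markers fell in 6 of 7, from 30.9 to 1840 down to 16.9 to 112, and Nppa and Tnni3 were at 0 in 16 and 6 mice. Alveolar type 2 markers fell in 5 of 6, club cell markers in 3 of 3, B cell markers in 4 of 4 and T cell markers in 5 of 5. Alveolar macrophage markers rose in 4 of 5, with 1 falling, and fibroblast and smooth muscle markers rose in 2 of 5. Endothelial markers rose in 1 and fell in 3 of 6, and their sum was 897 to 1462 in room air and 733 to 1634 in hyperoxia. The part of these cell types in the values of the immediate early genes was not tested.

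Whether the strains differed in the response to hyperoxia was tested as the difference of the effects, C3H minus C57B, in the 24 saline mice. Of the 10 genes, 1 passed, Nr4a1, against 11.5% of all genes. In C3H mice Nr4a1 was 30.1 ± 25.0 FPKM (SD, n = 6) in room air and 73.3 ± 15.9 (SD, n = 6) in hyperoxia. In C57B mice it was 42.1 ± 26.1 (SD, n = 6) in room air and 29.7 ± 18.2 (SD, n = 6) in hyperoxia. The contrast was steepest in C3HM, where the 3 room air mice had 8.38, 6.46 and 11.6 FPKM and the 3 hyperoxia mice 54.8, 93.9 and 60.8. In C57BM the room air mice had 10.2, 17.9 and 54.9 FPKM and the hyperoxia mice 20 and 21 had 8.30 and 22.8, with mouse 19 inside the room air range, so these groups overlapped. In C3HF the values were 62.6, 35.3 and 56.0 in room air and 73.0, 66.9 and 90.7 in hyperoxia, without overlap. In C57BF they were 67.3, 30.5 and 71.7 in room air and 22.5, 54.4 and 20.5 in hyperoxia. The strain difference of the effect was 2.15 ± 0.55 (SE) on the log2 scale (adjusted p = 0.0168), and it passed the threshold in all 7 other settings and in all 24 fits that left out 1 mouse. The other 9 genes had differences between -0.55 and 0.51, with adjusted p-values of at least 0.248. As deposited, the median difference over all genes was 0.15, and it was near 0 after quantile normalization, where Nr4a1 had 2.08 and still passed. In the same contrast markers of club cells (3 of 3), B cells (3 of 4) and T cells (3 of 5) had a larger effect in C3H, endothelial markers a larger one in 2 and a smaller one in 1 of 6, and alveolar macrophage markers a larger one in 1 and a smaller one in 1 of 5. Their part was not tested. Of the 34 other immediate early genes 4 had a lower hyperoxia effect in C3H, Ctgf, Plk3, Klf6 and Ppp1r15a, and 0 a larger one, and Fosl1 had a difference of -2.35 (adjusted p = 0.00621).

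**Figure D3:**
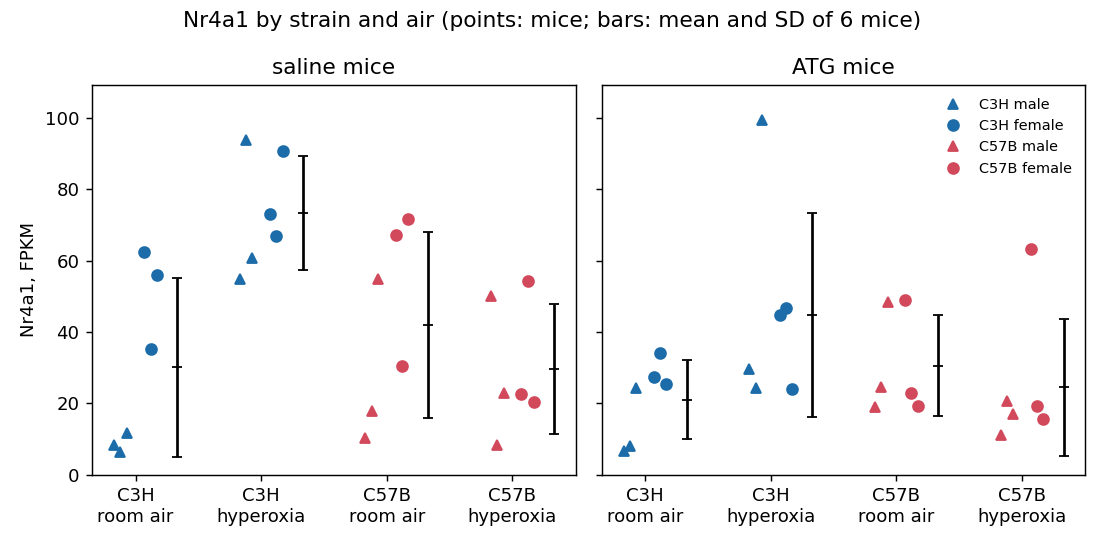
FPKM of Nr4a1 by strain and air in saline mice and in ATG mice, with 1 point per mouse, sex as marker shape, and the mean and SD of 6 mice as bars. In saline mice in hyperoxia the C3H values, 54.8 to 93.9, lie above the C57B values, 8.30 to 54.4, and in ATG mice the strains overlap.

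Within hyperoxia, saline C3H mice had more Nr4a1 than C57B mice by 1.48 ± 0.37 (SE) on the log2 scale (adjusted p = 0.0125). Their values, 54.8 to 93.9 FPKM, did not overlap with those of C57B, 8.30 to 54.4, although the nearest mice were almost level. Jun was also higher in C3H, with a median of 95.6 FPKM against 73.4 and a log2 difference of 0.34 ± 0.08 (SE) (adjusted p = 0.00939), a call that was lost under median ratio scaling (adjusted p = 0.0620). These 2 of 10 stand against 28.2% of all genes. In the same mice markers of club cells (3 of 3) and endothelial cells (4 of 6) were higher in C3H, alveolar macrophage markers were higher in 1 and lower in 2 of 5, and the endothelial sums were 1250 to 1634 FPKM in C3H and 733 to 1043 in C57B. The part of cell composition in the strain difference was not tested.

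The strain comparisons were then made in the ATG mice, a choice made after the values of the saline mice had been seen. Nr4a1 had a strain difference of the hyperoxia effect of 1.51 with a 95% interval from 0.35 to 2.68 that missed the threshold (adjusted p = 0.0781). Here 1 of the 10 genes passed, Klf4 with -0.72 ± 0.18 (SE) (adjusted p = 0.0127), against 13.3% of all genes. Klf4 in C3HM given ATG was 45.9, 52.3 and 57 FPKM in room air and 27.4, 29.2 and 33.8 in hyperoxia, whereas in C57BM it was 29.5, 41.9 and 51.4 and then 60.3, 54.3 and 48.7. In ATG mice in hyperoxia, 6 of the 10 genes differed between strains, against 27.2% of all genes. On leaving out 1 mouse the count was 4 to 6, and 6 in 7 of 12 cases, while Junb, Egr1, Ier2 and Klf4 passed in all 12. Junb was 226 to 281 FPKM in C3H and 108 to 217 in C57B, without overlap (log2 0.66 ± 0.08 (SE), adjusted p = 9.68e-05). Ier2 was 125 to 182 in C3H and 71.0 to 117 in C57B, again without overlap (log2 0.73 ± 0.08 (SE), adjusted p = 5.18e-05). Egr1 (0.97, adjusted p = 0.00213), Fos (0.55, adjusted p = 0.0286) and Jun (0.32, adjusted p = 0.0259) were higher in C3H as well, and Klf4 was lower (-0.47, adjusted p = 0.00596). Nr4a1 had a log2 difference of 0.89 (adjusted p = 0.119). In the same mice club cell markers were higher in C3H in 3 of 3, alveolar macrophage markers lower in 3 of 5 and endothelial markers higher in 3 and lower in 1 of 6, and 1 of 6 neutrophil markers was higher. In ATG mice in room air 5 of 6 neutrophil markers were lower in C3H, and their hyperoxia effect was larger in C3H in 5 of 6. Their part was not tested. Whether the strain differences of saline and ATG mice themselves differ was not tested.

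ATG was compared with saline within each air. In room air 0 of the 10 genes passed, by limma, against 0.0185% of all genes. An unadjusted p-value under 0.05 was found for 0 of the 10, beside 1077 of all 16228 genes. The log2 differences of the 10 lay between -0.24 and 0.20. The strain difference of the ATG effect in room air likewise gave 0 of 10 genes, and 0% of all genes. Here too 0 of the 10 had an unadjusted p-value under 0.05, beside 743 of all 16228 genes. In hyperoxia, averaged over strain and sex, 3 of the 10 genes were lower in ATG mice, against 5.47% of all genes. Fosb was lower by 1.16 ± 0.29 (SE) on the log2 scale (adjusted p = 0.0276), with a median of 1.79 FPKM under ATG and of 5.50 under saline. The ranges overlapped, and 2 of the 12 ATG mice lay below all saline mice. Klf4 had a median of 47.6 FPKM under ATG and of 54.0 under saline, and 6 of the 12 ATG mice lay below all saline mice (log2 -0.34 ± 0.08 (SE), adjusted p = 0.0187). By strain, its medians under ATG and saline were 39.1 and 56.7 in C3H and 53.2 and 53.2 in C57B. Jun had medians of 73.1 and 87.2 (log2 -0.23 ± 0.06 (SE), adjusted p = 0.0348). Among the genes not called, Junb in C3HM was higher under ATG, 227 to 281 FPKM against 80.8 to 92.1 under saline. So were Ier2 (146 to 182 against 69.3 to 103) and Egr1 (76.7 to 141 against 19.3 to 62.6). Fos was too (63.4 to 118 against 28.8 to 57.9). In C57BM, C3HF and C57BF the means of these genes were lower under ATG. Whether the ATG effect in hyperoxia differed between groups was not tested. The count of 3 held in only 13 of the 24 fits that left out 1 mouse, and it was 1 to 3 over all of them. Without C3HM 10, or without C57BM 24, the calls of Fosb and Jun were lost and Klf4 alone was left. In the same comparison alveolar macrophage markers were lower under ATG in 3 of 5, with sums of 96.8 to 1695 FPKM against 271 to 1815 under saline, and endothelial markers in 2 of 6, with sums of 738 to 1493 against 733 to 1634. Their part was not tested.

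Fosb was also the one gene of the 10 whose hyperoxia effect differed between ATG and saline mice, against 2.77% of all genes. The difference was -1.23 ± 0.33 (SE) on the log2 scale (adjusted p = 0.0336), fitted in all 48 mice. In C3HF in hyperoxia, Fosb was 6.05, 4.96 and 15.4 FPKM with saline and 1.14, 1.48 and 1.79 with ATG, without overlap. In C57BF it was 6.64, 19.0 and 9.21 with saline and 1.81, 1.84 and 4.19 with ATG, again without overlap. In C57BM it was 14.5, 0.881 and 1.04 with saline and 1.06, 1.79 and 0.644 with ATG, so that 1 saline mouse, 19, stood apart. In C3HM it was 1.62, 1.83 and 2.94 with saline and 0.880, 2.42 and 2.34 with ATG. The females thus gave the clearer separation, and a 3-way difference with sex was not tested. Fosb is the least abundant of the 10 genes, and its call was lost when no filter on low values was used (adjusted p = 0.0578) and without any 1 of 8 mice, with adjusted p-values of up to 0.0566. Of 9 glucocorticoid induced genes tested, 4 (Per1, Fkbp5, Errfi1 and Klf9) also had a smaller hyperoxia effect under ATG, the largest being Per1 with -1.22 (adjusted p = 0.00631). Alveolar macrophage markers had a smaller effect in 3 of 5 and endothelial markers in 2 of 6. The part of these cells in the values of Fosb was not tested.

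Males and females were compared in saline mice in room air. Of the 10 genes, 3 were lower in males, against 0.669% of all genes. Dusp1 was 70.3 to 122 FPKM in 6 males and 129 to 401 in 6 females, with medians of 91.7 and 270, so that no male reached the lowest female. The log2 difference was -1.33 ± 0.20 (SE), 2.51-fold, with an adjusted p = 0.0150. Nr4a1 had medians of 10.9 FPKM in males and 59.3 in females (log2 -1.82 ± 0.36 (SE), adjusted p = 0.0479), and 5 of 6 males lay below all females, C57BM 15 with 54.9 being the exception. Klf4 had medians of 36.6 and 91.6 (log2 -1.19 ± 0.23 (SE), adjusted p = 0.0479), with C3HM 3 at 85.7 as the one male among the females. The call of Nr4a1 was lost in 6 and that of Klf4 in 5 of 7 other settings, Dusp1 passed in all 7, and without C3HF 25 none of the 3 passed. The median difference over all genes was -0.12 and fell to -0.01 after quantile normalization, where Dusp1 had -1.37 (adjusted p = 0.0178). Of the lists, other immediate early genes were higher in males in 1 (Gadd45g, 0.84, adjusted p = 0.0251) and lower in 2 of 34, MAP kinase phosphatases lower in 1 of 10 and glucocorticoid induced genes lower in 2 of 9. Per1, a clock gene that glucocorticoids also induce, was lower in males by 1.85 on the log2 scale (adjusted p = 0.0123) and Sik1 by 1.14 (adjusted p = 0.0137). Red blood cell markers were higher in males in 1 of 4 tested, with sums of 15370 to 67957 FPKM in males and of 3341 to 14150 in females. Their part in these differences was not tested.

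**Figure D4:**
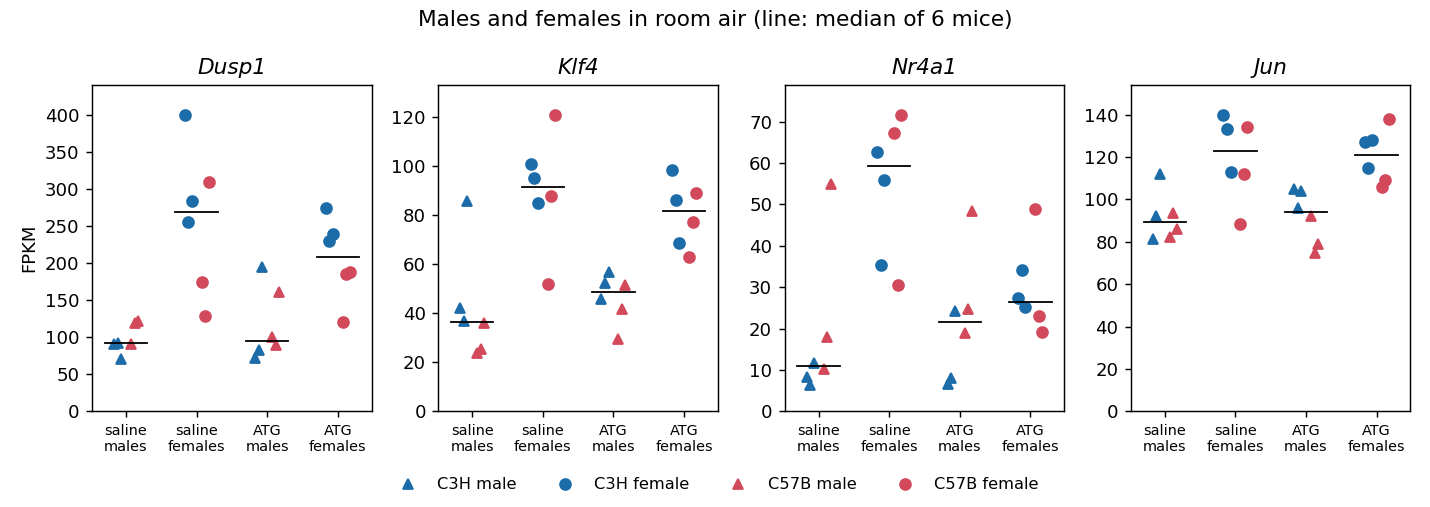
FPKM of Dusp1, Klf4, Nr4a1 and Jun in males and females in room air, in saline mice and in ATG mice, with 1 point per mouse, strain as colour and a line at the median of 6 mice. Male medians lie below female medians in all 4 genes and both injections, and the sexes do not overlap for Dusp1 in saline mice or for Klf4 and Jun in ATG mice.

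The 12 ATG mice in room air share no animal with these, and the same comparison was made in them after the saline values had been seen. There 2 of the 10 genes were lower in males, against 1.63% of all genes. Klf4 was 29.5 to 57 FPKM in males and 62.9 to 98.6 in females, without overlap (log2 -0.80 ± 0.14 (SE), adjusted p = 0.0180). Jun was 74.9 to 105 in males and 106 to 138 in females, also without overlap (log2 -0.40 ± 0.08 (SE), adjusted p = 0.0385), beside -0.39 in saline mice, which missed the threshold (adjusted p = 0.116). Dusp1 missed the threshold in ATG mice with -0.87 (adjusted p = 0.0983), and Nr4a1 with -0.64 (adjusted p = 0.384). Without C57BF 42 neither gene passed. Of the lists, other immediate early genes were higher in males in 2 and lower in 7 of 33, glucocorticoid induced genes higher in 1 and lower in 3 of 9, and AP-1 and MAF partners higher in 1 of 12. Per1 was lower in males by 1.82 (adjusted p = 0.00881) and Nfil3 higher by 1.31 (adjusted p = 0.000381). Of the cell type markers, 2 of 6 for neutrophils were higher in males, and their part was not tested.

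In hyperoxia none of the 10 genes passed the test between the sexes. In saline mice limma called 0 of 10, against 0.0266% of all genes. An unadjusted p-value under 0.05 was found for 6 of the 10, beside 2078 of all 15046 genes. Junb had medians of 94.6 FPKM in males and 267 in females (log2 -1.25, adjusted p = 0.247), and Fosb medians of 1.73 and 7.92 (log2 -1.55, adjusted p = 0.269). A single male, C57BM 19, stood among the females with 406 FPKM for Junb and 14.5 for Fosb. Without it 4 of the 10 genes passed, Fosb, Junb, Dusp1 and Maff, each lower in males. The share of all genes past the threshold in fits that left out 1 mouse is not given here. Such counts thus have no background beside them. In the same saline mice in hyperoxia, neutrophil marker sums had medians of 206 FPKM in males (161 to 4863) and 3060 in females (180 to 6271). Alveolar type 2 marker sums went the other way, with medians of 12206 in males and 8691 in females. The part of these cells in the sex differences was not tested. In ATG mice in hyperoxia limma called 0 of 10, against 0.00660% of all genes, and log2 differences lay between -0.56 for Dusp1 and -0.01 for Jun. There 4 of the 10 had an unadjusted p-value under 0.05, beside 1191 of all 15142 genes. The sex difference of the hyperoxia effect in saline mice gave 0 of 10, against 0.0368% of all genes. Here 4 of the 10 had an unadjusted p-value under 0.05, beside 2964 of all 16321 genes. Klf4 came nearest, with 1.27 (adjusted p = 0.102), before Jun with 0.49 (adjusted p = 0.150). In the fit of all 48 mice these 2 genes passed, while the number of all genes past the threshold went from 6 to 345 of 16321. Without C57BM 19 Fosb, Junb and Klf4 passed, and without C3HM 2, C3HM 3 or C57BF 37 Klf4 alone.

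Between the strains in saline mice in room air, 1 of the 10 genes differed, against 11.8% of all genes. Maff was lower in C3H by 0.76 ± 0.18 (SE) on the log2 scale (adjusted p = 0.0185). The values of C3HM, 5.22, 6.18 and 6.01 FPKM, were the lowest 3 of the 48 lungs, whereas C3HF had 21.6, 15.6 and 18.5, C57BM 15.2, 16.5 and 19.3 and C57BF 13.3, 18.2 and 33.0. The group of C3HM thus stood apart from the other 3, which overlapped with each other. A test of strain by sex gave 0 of 10 genes, against 0% of all genes, and Maff had an adjusted p = 0.189. In that test 3 of the 10 had an unadjusted p-value under 0.05, beside 2538 of all 15546 genes. Without C3HM 2 Maff passed the test of strain by sex, and without C3HF 26 it no longer differed by strain (adjusted p = 0.0518). In ATG mice in room air 0 of 10 genes differed between strains, against 18.3% of all genes, and Maff had -0.42 (adjusted p = 0.0599). An unadjusted p-value under 0.05 was found there for 2 of the 10, beside 4853 of all 15374 genes. Neutrophil markers were lower in C3H in 5 of 6 and B cell markers in 4 of 4 in saline mice in room air, and their part was not tested.

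Mice of the same group also differed from each other in these genes. The SD within groups on the log2 scale was 0.75 for Nr4a1, 0.66 for Fos and Egr1, and 0.59 for Fosb, at the 96.5th, 95.0th, 95.0th and 93.6th percentile of 16994 genes, against a median of 0.26. Jun was at the 11.9th percentile with 0.16. The deviations of single mice from their group means were compared over 48 mice, in which all values of a mouse share 1 library and its scaling. Over the 45 pairs of the 10 genes the median Pearson r was 0.47, beside 0.04 over pairs of 1 in 7 genes. Fos, Junb, Egr1 and Ier2 varied together, with r between 0.77 and 0.91 over their 6 pairs, and Junb with Ier2 was the closest pair. Klf4 had r between -0.19 and -0.00 with these 4 genes, and of 0.52 with Jun and 0.52 with Maff. Leaving out C57BM 19 lowered the median over 45 pairs to 0.36, and no other mouse lowered it as far.

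**Figure D5:**
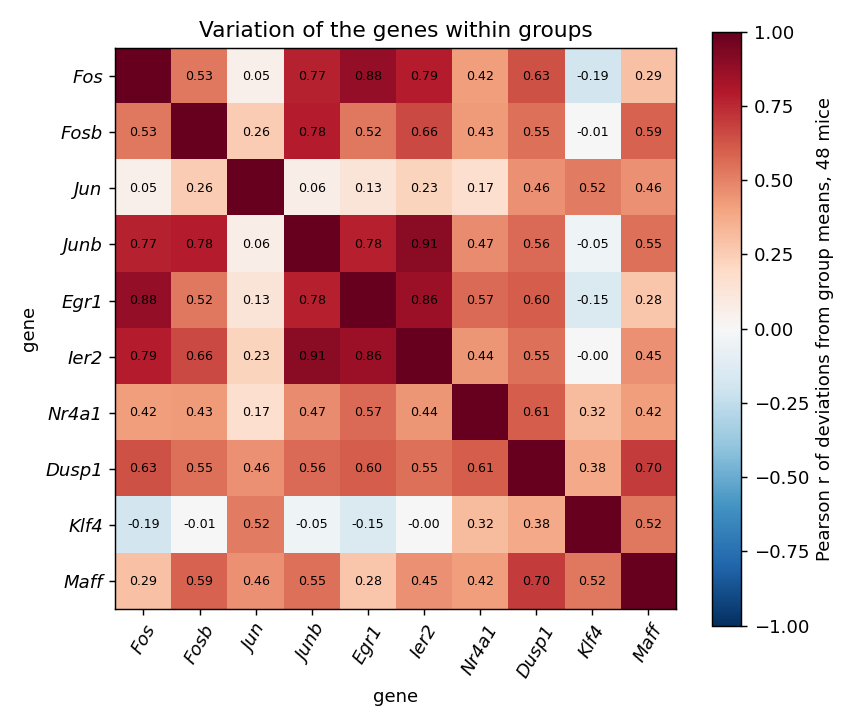
Pearson r between each pair of the 10 genes, computed on deviations of log2(FPKM + 1) from the means of the 16 groups over 48 mice, as a colour scale from -1 to 1 with the value printed in each cell. Fos, Junb, Egr1 and Ier2 form a block with r of at least 0.77, while Klf4 and Jun lie near 0 against most of that block.

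The 10 genes outside the set whose deviations followed the mean of the standardized deviations most closely were Csrnp1 (r = 0.84), Zfp36 (0.80), Btg2 (0.71), Egr2 (0.70), Ctgf (0.69), Prtn3 (0.69), Thbs1 (0.69), Cyr61 (0.68), Pim3 (0.68) and Nr4a3 (0.68), over 48 mice and 16994 genes. Of these, 7 are on the list of other immediate early genes. Among the members themselves, Dusp1 followed that mean most closely (0.86) and Klf4 least (0.33). The r values are descriptions, and each member enters the mean it is compared with.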

How the data were processed

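Lung RNA of 48 mice had been sequenced. The deposited values are FPKM per gene, which the authors made, per the submitters' processing notes, with GSNAP, SAMtools and Cufflinks on mm10. Absolute depth is unknown, and strand use is not given in the sources used here. Akap5, whose value marked a failed estimate in 7 lungs, was left out. Groups were taken from the labels. Genes had to reach an FPKM of 1 in 3 or more mice of a fit. Their log2(FPKM + 1) was compared with limma 3.58.1 in R 4.3.3 (moderated variance with a trend), in models of strain, sex and, where both occur, injection and air, with Benjamini-Hochberg adjustment over all genes tested and a threshold of 0.05. The procedure was tested on simulated data. Of the 18 comparisons, 5, all within ATG mice, were chosen after seeing the data. The genes and lists were chosen with earlier results of these data known. All 10 genes were tested in every comparison and counted, and values are given for those that passed or came near. Of each list, genes named were among the 4 largest changes past the threshold, Batf2, Atf2 and the fall of Klf9 in ATG mice excepted. Alternatives were another pseudocount (0.1), other filters, quantile normalization, median ratio scaling, limma without the trend, all 48 mice in 1 fit, and leaving out each mouse. Promoters came from RefSeq (GRCm38.p6).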

Additional observations from a re-analysis of the deposited data

Results flagged for a closer look

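In 3 results an effect differed between groups by a test of the difference itself, with limma and adjustment over all genes. Each is the only 1 of the immediate early genes described here that passed in its comparison. Of all genes tested, 11.5% passed in the comparison of Nr4a1, 2.77% in that of Fosb and 13.3% in that of Klf4. For Nr4a1 and Klf4 the immediate early genes thus passed no more often than all genes. For Nr4a1 the hyperoxia effect in saline mice differed between the strains by 2.15 on the log2 scale, C3H minus C57B, and the value within ATG mice, 1.51, missed the threshold (adjusted p = 0.0781). For Fosb the hyperoxia effect differed between ATG and saline mice by -1.23, and 8 single mice could each end this call when left out. For Klf4 the hyperoxia effect in ATG mice differed between the strains by -0.72, in a comparison chosen after seeing the data, and in saline mice the same difference was -0.43 (adjusted p = 0.322). Explanations for these differences were not tested.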

How the results depend on the processing

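Counts are of the 10 genes past the threshold, and the causes of changes were not tested. For fits that left out 1 mouse the share of all genes is not given, so those counts have no background beside them. With all 48 mice in 1 fit, the sex difference of the hyperoxia effect went from 0 to 2 genes, strain in saline room air from 1 to 2, sex in saline room air from 3 to 5, strain by sex from 0 to 1 and sex in saline hyperoxia from 0 to 2. In the same order all genes past the threshold rose from 6 to 345, 1832 to 2981, 104 to 2057, 0 to 841 and 4 to 389. Sex in saline room air fell to 1 (Dusp1) with the pseudocount of 0.1, the FPKM minimum of 0.1, no filter, median ratio scaling and limma without the trend. Sex in ATG room air fell from 2 to 1 (Klf4) with no filter, median ratio scaling and limma without the trend. The ATG difference of the hyperoxia effect fell from 1 to 0 with no filter, and strain in saline hyperoxia from 2 to 1 under median ratio scaling. Leaving out 1 mouse gave 0 to 3 genes for the sex difference of the hyperoxia effect, 1 to 3 for ATG in hyperoxia, 0 to 1 for the ATG difference (0 without mouse 6, 10, 16, 24, 27, 37, 42 or 44), 0 to 1 for strain in saline room air, 0 to 4 for sex in saline room air (1 without 1, 13, 14, 26, 27, 38 or 39), 0 to 1 for strain by sex and 0 to 4 for sex in saline hyperoxia. In ATG mice it gave 1 to 3 for the strain difference of the hyperoxia effect (more without 6, 16, 30 or 46, with Nr4a1 among them without 6 or 46), 0 to 1 for strain in room air (1 without 5, 6, 17 or 42) and 0 to 2 for sex in room air (1 without 4, 5, 17, 18, 28, 29, 30 or 41). Values near 0 changed sign. Klf4 in hyperoxia in saline mice lay between -0.10 and 0.072 without 1 mouse, and Fosb in hyperoxia in ATG mice between -0.10 and 0.040, with 0.034 under quantile normalization. Quantile normalization moved the median of all genes to near 0 from 0.15 (strain difference of the hyperoxia effect), 0.14 (sex difference), -0.12 (sex in saline room air) and -0.15 (strain by sex). No paired analysis was possible because each mouse belongs to 1 group and carries its own number. FPKM without read counts set no limit on low values such as those of Fosb.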
